A study of Mus musculus with 9 samples.

Results

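The genes described here are 7 transcription factor genes grouped by name as pre-granulosa and ovarian somatic factors: Foxl2, Runx1, Irx3, Irx5, Nr0b1, Msx1 and Sp5. They were chosen by symbol, and all 7 were found by their Ensembl identifiers among the 15300 genes of the authors' deposited tables. RNA was sequenced from whole gonads, separated from the mesonephros (the neighbouring embryonic kidney), of C57BL/6 mouse fetuses at E13.5 (days after conception). There were 3 groups of 3 samples. XX-WT samples were ovaries of XX fetuses homozygous for the floxed Sox9 allele (Sox9flox/flox). XY-WT samples were testes of XY fetuses of that same floxed genotype, and the labels call both groups wildtype and name no Cre in them. XY-KO samples were testes of XY fetuses of the genotype AMH-Cre; Sox9flox/flox, in which the AMH promoter drives Cre recombinase in Sertoli cells, the supporting cells of the testis. The floxed alleles were thus shared by all 9 samples, controls included, and the deletion concerns the cells in which that promoter is active and not the whole gonad. Whether 1 fetus or a pool gave each sample is not in the labels, so p-values measure the spread between these samples.

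In the early gonad a shared set of supporting cell precursors becomes Sertoli cells in XY fetuses, where SRY switches on SOX9, and pre-granulosa cells in XX fetuses, where R-spondin and WNT signals stabilise beta-catenin. FOXL2 is a forkhead factor that maintains granulosa cell identity and is known for its mutual antagonism with SOX9, and RUNX1 acts beside it in fetal granulosa cells. IRX3 and IRX5 are Iroquois homeodomain proteins of the fetal ovary, MSX1 is a homeodomain protein induced by BMP signals, SP5 is a zinc finger factor and a direct target of WNT signalling, and NR0B1 (DAX1) is an X-linked nuclear receptor that represses NR5A1 and is made in gonads of both sexes.

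The values behind the results were the authors' own limma comparisons of pairs of groups. The standard error (SE) of each log2 fold change was taken from the deposited t score, and intervals are 95%. Each group's mean level was derived from the fold changes and the deposited mean expression, in log2 CPM (CPM, counts relative to the library's total). No per-sample values were used, so the spread is given as the SE of a group mean of 3 samples, and the depth of each sample is unknown. A gene was called at a limma adjusted p under 0.05 over all 15300 genes. The tissue labels were checked with marker genes. Amh, the Sertoli cell hormone, was at -4.3 log2 CPM in XX-WT against 6.74 in XY-WT and 4.68 in XY-KO. Sox9 was at 2.01 log2 CPM in XX-WT and 6.48 in XY-WT, and in XY-KO it fell by 2.76 on the log2 scale to 3.72 (SE 0.172, limma adjusted p 8.93e-07, the authors' deposited table).

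The first comparison set the control ovary against the control testis. Of the 7 genes, 6 were higher in XX-WT and none was lower, and the exception was Nr0b1. By comparison 10.9% of all genes were called higher in XX-WT and 23.3% were called in either direction. The median log2 fold change of the 7 genes was 4.37, against 0.004 over all genes. The differences of the 6 called genes ran from 3.51 for Sp5 to 5.87 for Irx3 in the authors' deposited table, and on the list of all genes ordered from the highest fold change the 6 stood between position 10 (Irx3) and position 77 (Sp5). In whole-tissue RNA, a lower number of cells of a type and less RNA per cell cannot be told apart.

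**Figure D1:**
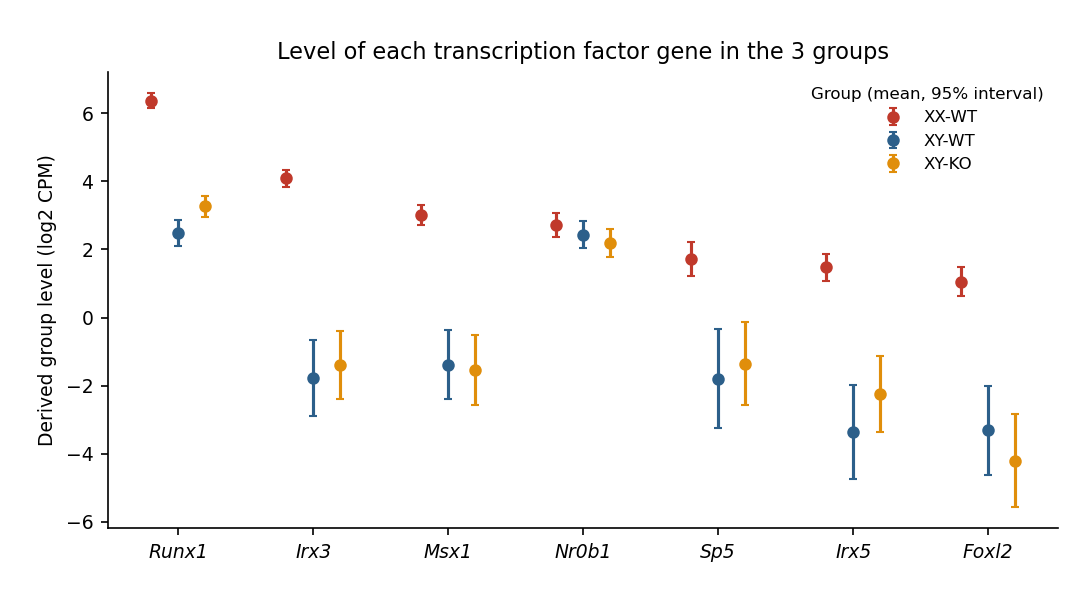
Derived mean level of the 7 genes (vertical axis, log2 CPM) in XX-WT (red), XY-WT (blue) and XY-KO (orange), with bars for the 95% interval of a mean of 3 samples. Except for Nr0b1, the XX-WT point lies above both testis groups with no overlap of the bars, and Runx1 is the only one of these 6 genes above 2 log2 CPM in the testis groups.

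Foxl2 (ENSMUSG00000050397, GRCm38 chromosome 9, 98955288 to 98958543, plus strand) was at 1.05 log2 CPM in XX-WT (SE 0.21, n = 3), -3.31 in XY-WT (SE 0.62) and -4.2 in XY-KO (SE 0.64). Both testis levels were among the lowest of all genes, and their intervals overlapped each other but not that of the ovary. The XX-WT difference from XY-WT was 4.37 (SE 0.651, limma adjusted p 0.000135) by the authors' deposited table. Because the testis levels lie under -3 log2 CPM, where the offset added before taking logs sets the value, no linear fold is given. Although Foxl2 is the best known granulosa marker of the set, it was with Irx5 at the foot of the 7 genes in the ovary when levels were taken per kilobase of exon.

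The transcript Foxl2os starts beside Foxl2 and runs away from it on the opposite strand, and its annotated exons share 12 bp with Foxl2. Its derived level was 2.52 log2 CPM in XX-WT, -2.48 in XY-WT and -0.83 in XY-KO. The authors' deposited table gave it an XX-WT difference of 4.99 (SE 0.542, limma adjusted p 6.04e-06) and an XY-KO difference from XY-WT of 1.64 (SE 0.627), which had an unadjusted p of 0.0192 and a limma adjusted p of 0.178. The 2 point estimates in XY-KO thus had opposite signs, -0.88 for Foxl2 and 1.64 for Foxl2os, and neither passed the test.

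Runx1 (ENSMUSG00000022952, chromosome 16, 92601466 to 92826149, minus strand) had the smallest errors of the 7 genes in the differences between groups. Its derived level was 6.37 log2 CPM in XX-WT (SE 0.10), or 83.0 CPM, which was above 91.6% of the genes in that group. It was 2.49 in XY-WT (SE 0.18, 5.61 CPM) and 3.26 in XY-KO (SE 0.15, 9.59 CPM). The 3 intervals did not overlap one another. Runx1 was 14.8-fold higher in XX-WT than in XY-WT (interval 10.9 to 20.1), a log2 fold change of 3.89 with a limma adjusted p of 4.46e-09 (the authors' deposited table). By p-value Runx1 was at position 20 of all genes in that comparison. Unlike the other 5 genes higher in the ovary, it kept a level of several CPM in the testis groups.

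Irx3 (ENSMUSG00000031734, chromosome 8, 91798525 to 91802067, minus strand) had the largest point estimate of the 7 in the ovary against the testis. It was at 4.09 log2 CPM in XX-WT (SE 0.12, 17.0 CPM), -1.78 in XY-WT (SE 0.52, 0.291 CPM) and -1.39 in XY-KO (SE 0.47, 0.38 CPM). The ovary stood apart, and the intervals of both testis groups overlapped widely. Irx3 was 58.5-fold higher in XX-WT than in XY-WT (interval 26.5 to 129), and its limma adjusted p was 1.04e-06 in the authors' deposited table.

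Irx5 (ENSMUSG00000031737, chromosome 8, 92357625 to 92376286, plus strand) starts 555.6 kb from Irx3. Its derived level was 1.47 log2 CPM in XX-WT (SE 0.19), -3.36 in XY-WT (SE 0.65) and -2.24 in XY-KO (SE 0.53). The order of the groups was the same as for Irx3, and again only the ovary stood apart from the others. The authors' deposited table gave an XX-WT difference of 4.83 (SE 0.681, limma adjusted p 8.01e-05). Other Iroquois genes (Irx1, Irx2, Irx4 and Irx6) were looked up by symbol and were not found among the 15300 genes. Mkx, a related homeobox gene, went the other way and was lower in XX-WT by 1.74 on the log2 scale (limma adjusted p 8.33e-06, the authors' deposited table).

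The transcripts between and around the Iroquois pair were then read, chosen for their position after their values were seen. Within 1 Mb of Irx3 lay 10 other measured genes, of which 7 were higher in XX-WT and none lower, beside 10.9% of all genes called higher. These neighbours are not independent of the set or of each other. They include Irx5, itself among the genes described here, and Irx3os, which shares exon with Irx3. Gm21817 lies within the span of Crnde on the same strand. The authors' deposited table gave Irx3os, the antisense partner of Irx3, an XX-WT difference of 5.80, the antisense transcript Gm3235 4.08, the lincRNA Gm21817 2.65, and Crnde, which starts 1.5 kb from the start of Irx5 and is a long non-coding RNA, 2.17. On the far side of Irx3 the chromatin remodeller gene Chd9 was higher by 0.46 and the ciliary gene Rpgrip1l by 0.55, and Fto, which holds known long-range enhancers of Irx3, was at 0.18 and did not pass (limma adjusted p 0.368, the authors' deposited table). On the far side of Irx5, the matrix metalloprotease gene Mmp2 was lower in XX-WT by 0.86 and Lpcat2, a lysophospholipid acyltransferase gene, was lower by 1.64 on the log2 scale, both by the authors' deposited table. Beyond them the carboxylesterase gene Ces1h starts 1022.1 kb from the start of Irx5. It was higher in XX-WT by 4.67 (limma adjusted p 0.000184, the authors' deposited table). Genes called higher were thus not limited to the pair and the transcripts next to it. In XY-WT Ces1h was at -4.42, Irx3os at -3.02 and Gm3235 at -3.29 log2 CPM. At such levels the offset sets the value, so the sizes of these 3 differences are uncertain. None of the 10 genes around Irx3 was called in XY-KO against XY-WT. Irx3os shares 124 bp of exon with Irx3, and whether the counting used strand is not given in the sources used here, so reads from that stretch cannot be told apart.

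**Figure D2:**
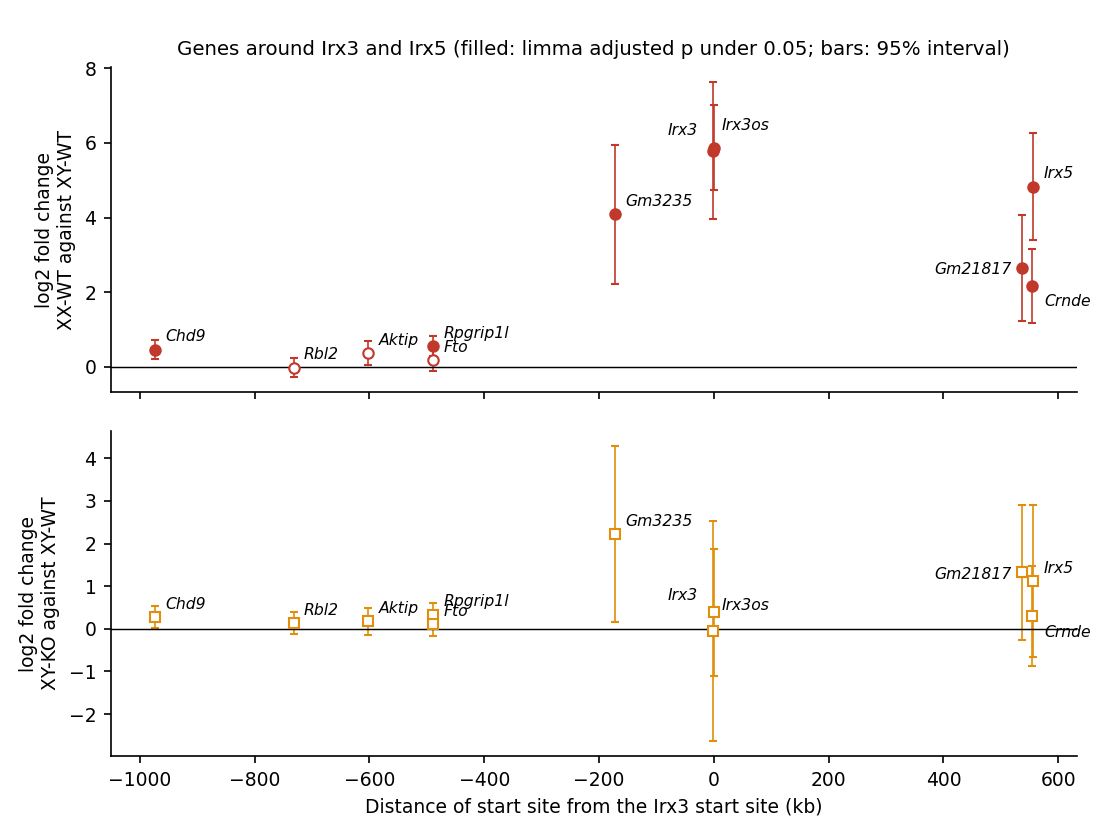
log2 fold changes (vertical axes) of the genes within 1 Mb of Irx3, by distance of start sites (horizontal axis, kb), for XX-WT against XY-WT (top) and XY-KO against XY-WT (bottom). Bars are 95% intervals and filled points passed the test. The high values in the top panel sit at Irx3, Irx3os, Gm3235, Irx5, Gm21817 and Crnde, and no point in the lower panel is filled.

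Msx1 (ENSMUSG00000048450, chromosome 5, 37820485 to 37824583, minus strand) was at 3.01 log2 CPM in XX-WT (SE 0.14, 8.06 CPM), -1.39 in XY-WT (SE 0.48, 0.382 CPM) and -1.54 in XY-KO (SE 0.48, 0.344 CPM). The intervals of the testis groups overlapped almost wholly, and the ovary was 21.1-fold above XY-WT (interval 10.1 to 43.9, limma adjusted p 9.01e-06, the authors' deposited table). Its paralog Msx2 was at 9.47 CPM in XX-WT, with -1.09 log2 CPM in XY-WT and 0.04 log2 CPM in XY-KO. For Msx2 the authors' deposited table gave an XX-WT difference of 4.33 (limma adjusted p 1.03e-05) and an XY-KO difference of 1.13, which did not pass (limma adjusted p 0.315). A further homeobox gene of this family group, Dlx3, differed by 4.08 between XX-WT and XY-WT (limma adjusted p 0.00154, the authors' deposited table). Dlx3 was at -3.01 log2 CPM in XY-WT, where the offset sets the value, so the size of its difference is uncertain.

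Msx genes respond to BMP signals, and the BMP list of 16 measured ligands, receptors, SMADs and ID targets did not move one way. In XX-WT against XY-WT, 3 were higher and 5 lower, with a median log2 fold change of -0.10. Of all genes 10.9% were called higher in XX-WT and 23.3% in either direction. The authors' deposited table gave Bmp2, a ligand, 2.67 and the receptor gene Bmpr1b 2.21, while the inhibitory SMAD gene Smad7 was lower in XX-WT by 1.04 on the log2 scale. In XY-KO against XY-WT none of the 16 passed, where 2.27% of all genes did. An unadjusted p under 0.05 was reached by 3, as by 18.9% of all genes, and 3 of 16 is near that share.

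Sp5 (ENSMUSG00000075304, chromosome 2, 70474923 to 70477729, plus strand) was at 1.72 log2 CPM in XX-WT (SE 0.23, 3.28 CPM), -1.8 in XY-WT (SE 0.68, 0.287 CPM) and -1.35 in XY-KO (SE 0.57, 0.392 CPM). The ovary again stood alone. Sp5 was 11.4-fold higher in XX-WT than in XY-WT, with the widest relative interval of the genes given as a fold (3.94 to 33.1, limma adjusted p 0.00212, the authors' deposited table). The other measured SP genes, Sp1, Sp2, Sp3, Sp4 and Sp9, were not called in any comparison, with XX-WT differences from -0.19 (Sp2) to 0.26 (Sp4) in the authors' deposited table.

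The 250 bases upstream of the start of Sp5 are shown because SP5 is a WNT target and the 6 letters CTTTGA, the core bound by TCF/LEF, the DNA-binding partners of beta-catenin, occur at 2 places. Capitals mark every match on either strand to this core or to a further 5 motifs, which were ACAAT for the SOX proteins, TGTTTA for the forkhead (FOX) proteins, TGTGGT for the RUNX proteins, AAGGTCA for the nuclear receptors of the NR5A family and, for the zinc finger proteins of the GATA family, the letters AGATAA. The sequence is from RefSeq, build GRCm38.p6, chr2:70474673-70474922, plus strand.
Sp5: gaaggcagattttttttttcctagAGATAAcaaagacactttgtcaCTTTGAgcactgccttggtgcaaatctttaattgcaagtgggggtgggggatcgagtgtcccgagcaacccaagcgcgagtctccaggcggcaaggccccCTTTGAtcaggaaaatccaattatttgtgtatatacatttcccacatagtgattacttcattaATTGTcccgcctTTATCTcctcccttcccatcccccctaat
The TCF/LEF letters begin 204 and 104 bases before the start, the SOX letters, on the minus strand, 41 bases before it, and the GATA letters 226 and, on the minus strand, 29 bases before it. No matches overlapped. Of 32851 RefSeq promoter windows of this length, 13.8% held CTTTGA at least once and 1.37% held it at 2 or more places, 27.7% held the SOX letters and 9.99% the GATA letters. A match describes the letters only.

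The WNT pathway was read next, as a list of feedback and target genes and a list of upstream genes. Of 12 measured WNT feedback and target genes, Sp5 included, 8 were higher in XX-WT and 1 was lower, and without Sp5 the counts were 7 and 1 of 11. The 1 lower, named after its value was seen, was Dkk1 at -3.06 (limma adjusted p 2.31e-05, the authors' deposited table). The authors' deposited table gave Axin2, a scaffold of the beta-catenin destruction complex, 1.32, the transcription factor gene Lef1 1.27 and the R-spondin receptor gene Lgr5 1.76, beside 3.51 for Sp5 (interval 1.98 to 5.05). Among 11 measured upstream genes 5 were higher and 3 lower, including Wnt4 at 2.23, Rspo1 at 2.28 and Wnt5a, a ligand mostly of the non-canonical branch, at -1.51 in the authors' deposited table. In XY-KO against XY-WT, Sp5 did not pass, and neither did Wnt4, Rspo1, Axin2 or Lef1, although Rspo1 passed (0.0156) once a trend with GC content and transcript length was removed. The feedback genes that did pass in XY-KO went in both directions: Lgr5 fell by 2.49 on the log2 scale (limma adjusted p 0.000276), and 2 genes named after their values were seen were Nkd2, which fell by 1.24 (limma adjusted p 0.00409), and Rnf43, a ubiquitin ligase that removes WNT receptors, which rose by 1.45 (limma adjusted p 0.024, all in the authors' deposited table).

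**Figure D3:**
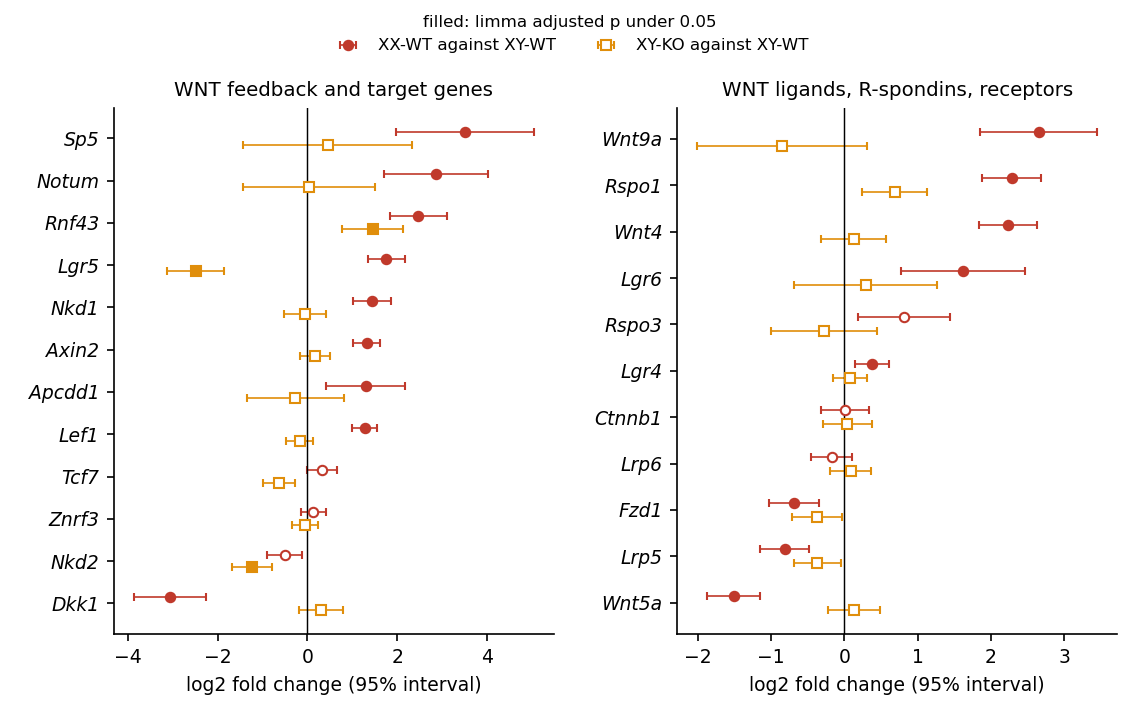
log2 fold changes with 95% intervals (horizontal axes) of the measured WNT feedback and target genes, with Sp5 in the first row (left), and of WNT ligands, R-spondins and receptors (right), for XX-WT against XY-WT (red circles) and XY-KO against XY-WT (orange squares). Filled symbols passed the test: 8 red circles lie to the right on the left panel, and only Rnf43, Lgr5 and Nkd2 have a filled square.

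Nr0b1 (ENSMUSG00000025056, chromosome X, 86191764 to 86195947, plus strand) went against the name of the group. Its derived level was 2.72 log2 CPM in XX-WT (SE 0.16, 6.58 CPM), 2.42 in XY-WT (SE 0.19, 5.37 CPM) and 2.2 in XY-KO (SE 0.19, 4.58 CPM). The 3 intervals overlapped. The XX-WT difference from XY-WT was 0.29 (SE 0.247, limma adjusted p 0.427) by the authors' deposited table, with an interval of -0.23 to 0.82 that leaves room for a level up to 1.76-fold higher in the ovary. Nr5a1, the receptor that NR0B1 represses, was lower in XX-WT by 1.20 on the log2 scale (limma adjusted p 0.000136, the authors' deposited table). The NR0B relative Nr0b2 was lower in XX-WT by 2.02 (limma adjusted p 0.00965) and Nr5a2 was at 0.13 (limma adjusted p 0.689, both in the authors' deposited table).

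The upstream bases of Nr0b1 are shown as the only other window of the set with a match. Its 239 bases outside the annotated gene are from RefSeq, build GRCm38.p6, chrX:86191525-86191763, plus strand, with capitals as above.
Nr0b1: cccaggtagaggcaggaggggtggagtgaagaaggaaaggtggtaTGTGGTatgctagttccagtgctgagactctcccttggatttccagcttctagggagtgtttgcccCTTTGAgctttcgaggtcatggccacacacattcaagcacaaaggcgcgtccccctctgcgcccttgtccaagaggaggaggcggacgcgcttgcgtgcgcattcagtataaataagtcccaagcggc
Positions are counted from the RefSeq start, which lies inside the annotated gene, past the end of the bases printed. The RUNX letters begin 205 and the TCF/LEF letters 139 bases before that start. RUNX letters were in 14.0% of all windows. The NR5A letters, present in 4.08% of all windows, and the FOX letters, present in 12%, were in neither sequence. Windows were found for 6 of the 7 genes (Irx5 was not among them), 7 windows in all since Runx1 has 2, and the other 5 held none of the 6 motifs.

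The second comparison asked whether these ovarian genes differ in the testis with AMH-Cre and floxed Sox9, XY-KO against XY-WT. Sox9 RNA in the whole XY-KO gonad was lowered and not absent (3.72 log2 CPM, against 2.01 in XX-WT). None of the 7 was called, where 2.27% of all genes were called. Only Runx1 had an unadjusted p under 0.05, as did 18.9% of all genes, and 1 of 7 is near that share. The median log2 fold change of the 7 was 0.389, against -0.011 over all genes. Of the point estimates 4 were above 0 (Runx1, Irx3, Irx5 and Sp5) and 3 below (Foxl2, Nr0b1 and Msx1).

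The XY-KO level of Runx1 was 1.71-fold that of XY-WT (interval 1.21 to 2.41), a log2 fold change of 0.77 (SE 0.233) with an unadjusted p of 0.00452 and a limma adjusted p of 0.0981 in the authors' deposited table. Adjusted over all 3 comparisons together its p was 0.0355, so the call depends on how the tests are pooled. The fold between the control gonads, 14.8, uses the same XY-WT samples. Its paralog Runx2 stood at 0.80 (SE 0.323, limma adjusted p 0.197) and Runx3 at 0.91 (SE 0.596, limma adjusted p 0.433) in the authors' deposited table, neither past the test, and Cbfb, the partner subunit of all RUNX proteins, was at -0.17 (limma adjusted p 0.541).

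The other 6 genes were measured with less precision in the testis, and their intervals bound what could have been missed. For Irx3 the XY-KO difference was 0.39 (interval -1.1 to 1.88), for Irx5 1.12 (-0.66 to 2.91) and for Sp5 0.45 (-1.45 to 2.34). For Msx1 it was -0.15 (-1.59 to 1.29) and for Foxl2 -0.88 (-2.78 to 1.01), with limma adjusted p from 0.503 (Irx5) to 0.928 (Msx1) for these 5 in the authors' deposited table. Nr0b1, at -0.23, had the narrowest interval of the 6 (-0.8 to 0.34). These upper ends allow a rise of at most 3.69-fold for Irx3, 2.45-fold for Msx1 and 5.07-fold for Sp5 within the interval, and so a p that missed the threshold does not show equal levels.

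**Figure D4:**
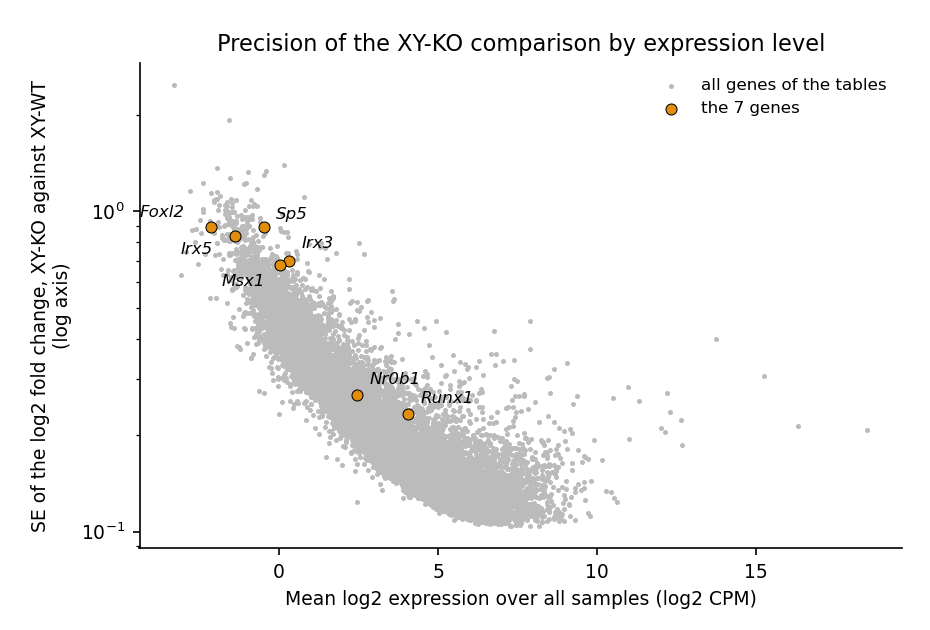
SE of the log2 fold change of XY-KO against XY-WT (vertical axis, log scale) by mean log2 expression over all samples (horizontal axis, log2 CPM) for all 15300 genes (grey) and the 7 genes (orange). Runx1 and Nr0b1 have SEs of 0.233 and 0.267, and the other 5 genes, at lower mean expression, have SEs from 0.678 to 0.892.

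The third comparison placed XY-KO against the control ovary. In XY-KO 6 of the 7 genes were lower than in XX-WT, all but Nr0b1, where 9.11% of all genes were called lower and 18.3% in either direction. The median of the 7 was -3.71, against -0.003 over all genes. This comparison shares the XY-KO samples with the second and the XX-WT samples with the first, so its values are given beside theirs and not as a further test.

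In the authors' deposited table Irx3 was lower in XY-KO than in XX-WT by 5.48 on the log2 scale, which is 44.7-fold (interval 22 to 90.9, limma adjusted p 9.22e-07). Msx1 was 23.4-fold lower (11.2 to 49.1, limma adjusted p 9.43e-06), Irx5 13.1-fold (5.73 to 29.9, 0.000195), Runx1 8.66-fold (6.62 to 11.3, 1.59e-08) and Sp5 8.37-fold (3.37 to 20.8, 0.0022), each p from the authors' deposited table. Foxl2 was lower by 5.25 on the log2 scale (SE 0.676, limma adjusted p 4.41e-05, the authors' deposited table). Among the called genes the smallest distances from the ovary were those of Sp5 and Runx1. For Nr0b1 the difference was -0.52 (SE 0.252), with an unadjusted p of 0.0561, a limma adjusted p of 0.183 in the authors' deposited table and an interval of -1.06 to 0.02.

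**Figure D5:**
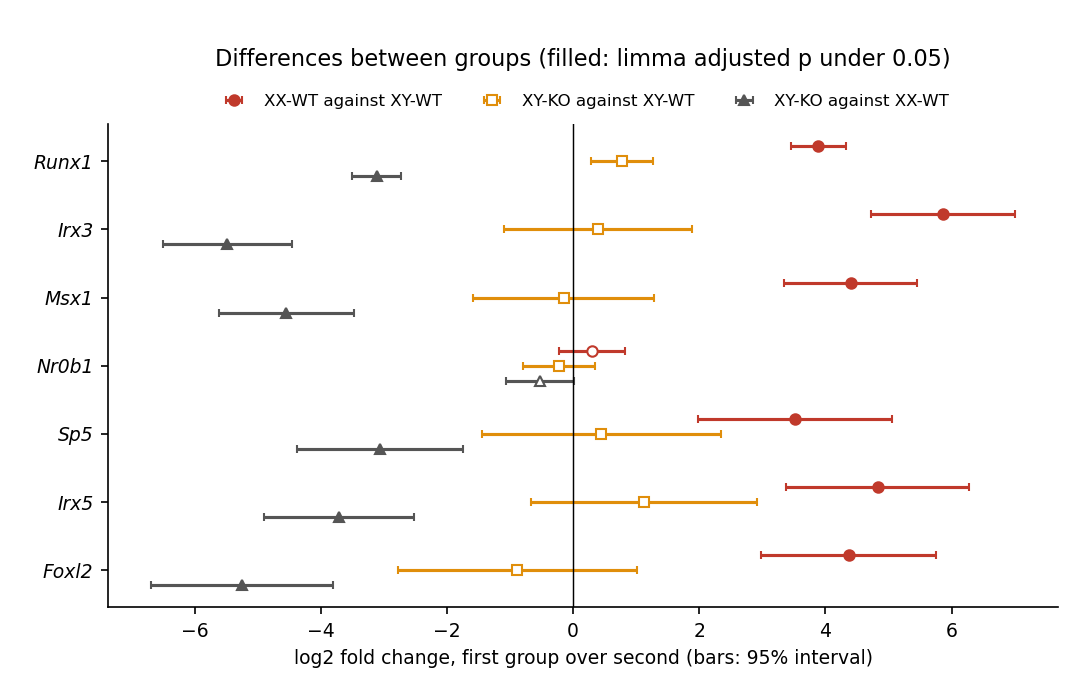
log2 fold changes of the 7 genes in the 3 comparisons (horizontal axis, first group over second) with 95% intervals. Filled symbols passed the test. The red circles (XX-WT against XY-WT) lie from 3.51 to 5.87 and the grey triangles (XY-KO against XX-WT) from -5.48 to -3.06 except for Nr0b1, and every orange square (XY-KO against XY-WT) is open.

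The order of the 7 genes within a gonad was compared per kilobase of exon. In XX-WT the levels in log2 CPM per kb were 2.79 for Runx1, 2.62 for Irx3, 1.86 for Nr0b1, 1.38 for Msx1, 0.65 for Sp5, -0.18 for Irx5 and -0.65 for Foxl2. Neighbours in this order differed beyond the interval of their difference except Runx1 with Irx3 and Irx5 with Foxl2. These intervals leave out the group weights assumed for the levels and the choice of exon length, and the order can move with both. In XY-WT the order was led by Nr0b1 at 1.57 and Runx1 at -1.1, which differed from each other and from the rest, and Sp5 at -2.87, Msx1 at -3.02 and Irx3 at -3.25 followed with no difference between neighbours beyond the interval. XY-KO had Nr0b1 at 1.34 and Runx1 at -0.33 in the same places, followed by Sp5, Irx3, Msx1 and Irx5 with no difference between neighbours beyond the interval. Foxl2 in both testis groups and Irx5 in XY-WT lie under -3 log2 CPM, where the offset sets the value, and were given no place in the order. Runx1, Irx3 and Nr0b1 thus led in the ovary, and Nr0b1 led in both testis groups.

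Genes of the pre-granulosa programme were read beside the 7. Of 18 measured partner genes, 14 were higher and 2 lower in XX-WT than in XY-WT, with a median log2 fold change of 1.66. The 2 lower, named after their values were seen, were Esr2 at -1.87 (limma adjusted p 0.00247) and Fzd1 at -0.69 (limma adjusted p 0.00588). Both values are from the authors' deposited table. The list shares genes with the WNT, BMP and meiosis lists, so its counts are not separate from theirs. Fst, the activin antagonist follistatin, had a difference of 7.27 in the authors' deposited table (interval 6.62 to 7.92, which overlaps the 4.73 to 7.01 of Irx3), and Cdkn1b, a cell cycle inhibitor of pre-granulosa cells, one of 1.94. In XY-KO against XY-WT 2 of the 18 were higher and 1 lower. Among those higher, named after its value was seen, was the calcium channel gene Ryr2 at 1.14 (limma adjusted p 0.0401, the authors' deposited table), and the 1 lower was Lgr5. Fst, at 0.59, did not pass (limma adjusted p 0.421), like all 7 transcription factor genes.

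Markers of other cells also differed between the gonads. All 12 Sertoli cell markers were lower in XX-WT than in XY-WT, and 10 of them were lower in XY-KO than in XY-WT. With the trend with GC content and length removed the second count was 9. Of all genes 2.27% were called in XY-KO against XY-WT in either direction. Sox9, the floxed gene itself, is among the 12 and the 10, so its fall was set by the design. The derived levels of the 12 summed to 38.0 CPM in XX-WT, 604 in XY-WT and 222 in XY-KO. Sox9 gave 4.02, 89.4 and 13.2 CPM of these sums. All 6 Leydig cell markers were lower in XX-WT and none was called in XY-KO against XY-WT, with sums of 24.4 CPM, 664 CPM and 656 CPM. In XX-WT against XY-WT, 4 of 7 germ cell markers were higher and none lower, with derived levels that summed to 560 CPM in XX-WT, 380 in XY-WT and 317 in XY-KO, and 12 of 17 meiosis genes were higher. Of 9 mesonephric and coelomic epithelium markers 7 were higher and 1 was lower, with sums of 386 CPM, 202 CPM and 230 CPM. The kidney factor gene Pax2 was at 0.35 log2 CPM in XX-WT, -1.82 in XY-WT and -3.26 in XY-KO. Most of the sum came from Emx2 and Lhx9, which gonads also express. Pax8 was at 9.3 CPM in XX-WT and 2.19 in XY-WT, Ret at 5.86 and 1.15, and Gata3 at 2.94 and 0.485. The 1 lower in XX-WT was Lhx1, at 2.8 CPM against 10.5 in XY-WT. Macrophage markers gave 1 of 5 higher, erythroid markers 1 of 8 higher and endothelial markers 1 of 10 higher and 3 lower. With the trend with GC content and length removed, 0 erythroid markers were higher and 2 endothelial markers were lower. Of all genes 10.9% were called higher in XX-WT and 23.3% in either direction. Outside the Sertoli cell list, none of these markers or meiosis genes passed limma's test in XY-KO against XY-WT. An unadjusted p under 0.05 was reached there by 1 germ cell, 2 mesonephric and coelomic, 2 erythroid and 2 endothelial markers. It was reached by 0 of the others, and by 18.9% of all genes. MSX1 is known in fetal germ cells as well as in somatic cells, and the part of any of these cell types in the levels of the 7 genes was not tested.

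Genes near the other members were also chosen for their position after their values were seen. Of the measured genes within 1 Mb, 4 of 17 around Foxl2, 4 of 22 around Runx1, 1 of 4 around Nr0b1, 5 of 17 around Msx1 and 7 of 24 around Sp5 were higher in XX-WT, beside 10.9% of all genes. Lower in XX-WT were 1 of those around Foxl2, 2 of those around Runx1 and 0 of those around the other 3 genes. Near Runx1, the chloride channel gene Clic6 had a difference of 3.62 in the authors' deposited table. The antisense transcript Gm26626, which lies within the span of Runx1 and shares 106 bp of exon with it, had one of 3.10. Both were low in XY-WT, at -3.16 and -2.41 log2 CPM, and reads from the shared exon cannot be told apart, as for Irx3os. Rcan1, a calcineurin inhibitor gene on the same side of Runx1 as Clic6, was lower in XX-WT by 1.32. It was the only neighbour of any of the 7 called in XY-KO against XY-WT. There it fell by 1.27 on the log2 scale (limma adjusted p 0.000787, the authors' deposited table).

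The genes with the most similar pattern were sought by the Euclidean distance over the 3 log2 fold changes, among 7336 genes at or above median expression. For Runx1 the closest was Adamts19, a secreted metalloprotease gene, at a distance of 0.0133, followed by Lrrn1, a leucine-rich repeat membrane protein gene, at 0.588. Irx5 was closest to Adamts19 and to Runx1, both at 1.17. Msx1 was closest to Tnfrsf19, a receptor gene of the TNF receptor family (0.914), and Sp5 to the collagen gene Col12a1 (0.478). For Irx3 and Foxl2 the nearest gene was Tnfrsf19, at 2.71 and 1.61. Their own mean expression (0.303 and -2.15 log2 CPM) is under the median of 3.19. The same holds for Irx5 (-1.38), Sp5 (-0.478), Msx1 (0.0286) and Nr0b1 (2.45). Genes as scarce as these were thus not searched, and the distances do not show that no gene lies close to them. Nr0b1 had Gemin5 at 0.00784 and Fkbp4 at 0.00948, in the dense middle of the distribution. Each distance rests on 3 group means only.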

How the data were processed

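There were 9 samples, and per the labels the RNA was amplified and read as pairs of 150 nt. Per the submitters' processing notes, the genome was GRCm38 and the tools were limma 3.24.0, HTSeq 0.6.1p1, TopHat2 2.0.8 and Trimmomatic 0.30; strand setting, filter and offset are not given in the sources used here. Per the file headers, the 3 deposited tables (15300 genes each) hold a log2 fold change and mean log2 expression, a limma p-value with its Benjamini-Hochberg adjusted p-value, and 2 scores, t and B.

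The SE was the log2 fold change over t. The deposited p and t implied 15.27 degrees of freedom, which gave the 95% intervals. The 3 log2 fold changes of each gene added up within 0.005, so group levels were derived with equal weights, and the SE of a group mean from the 3 SEs of differences. No linear fold is given with a level under -3 log2 CPM. Neighbours, exons and lengths came from GENCODE M21 (15192 genes matched), promoters from RefSeq GRCm38.p6. The steps were tested on simulated data. The scripts ran in Python 3.11.15 with matplotlib 3.10.9, statsmodels 0.14.6, scipy 1.17.1, pandas 2.3.3 and numpy 2.4.6.

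The 7 genes and the 19 other lists were chosen with earlier results of these data known. Named genes were every member, its family relatives, per list the 3 smallest adjusted p in XX-WT against XY-WT and the smallest in XY-KO against XY-WT, and the 2 genes of most similar pattern per member. Calls were repeated under 6 settings: adjusted p under 0.01, a 2-fold limit, genes at or above median expression, adjustment over the 3 comparisons together, Bonferroni, and a robust trend with GC content and length (polynomials of degree 3) removed. A few genes that these rules name are not reported here.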

Additional observations from a re-analysis of the deposited data

How the results depend on the processing

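The counts of the 7 genes called were 6 higher in XX-WT than in XY-WT, 0 in XY-KO against XY-WT and 6 lower in XY-KO than in XX-WT. The same counts came from the stricter threshold of 0.01, from a limit of 2-fold and after the trend with GC content and length was subtracted, which moved the median of all genes by at most 0.055. With Bonferroni adjustment the first count was 3 (Foxl2 at 0.0972, Irx5 at 0.0503 and Sp5 at 1 were lost) and the last was 4 (Irx5 at 0.114 and Sp5 at 1 were lost). Among genes at or above the median expression of 3.19 the first and last counts were both 1, since only Runx1 is that abundant. Adjusted over the 3 comparisons together, the XY-KO against XY-WT count was 1 (Runx1, limma adjusted p 0.0355). The genes named by the rule were recomputed one by one under 4 settings (abundant genes only, the comparisons adjusted together, Bonferroni and the trend subtracted), and none reversed. Of these values for genes other than the 7, 376 kept their side of the threshold, 18 lost it and 10 gained it. Rspo1 passed in XY-KO against XY-WT with the trend removed (0.0156), and Cbfb passed in XX-WT against XY-WT with it (0.0368).

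Of all 15300 genes, 3560 were called in XX-WT against XY-WT, and 2127 at 0.01, 1836 past the 2-fold limit, 1879 among abundant genes and 627 by Bonferroni. In XY-KO against XY-WT the 347 calls became 139, 190, 206 and 55, and 922 with the comparisons adjusted together. In XY-KO against XX-WT the 2796 became 1699, 1540, 1397 and 481.

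Giving 1 group a weight of 2 moved the derived levels of a gene together, by -0.95 to 0.52, and left differences between groups as they were. Genes moved by different amounts, so the order of the 7 within a group depends on these weights. No paired analysis was possible because no per-sample values were used, and for the same reason no replicate was left out. Depth is unknown, and for 5 of the 7 genes, all but Runx1 and Nr0b1, the SE in XY-KO against XY-WT was 0.678 to 0.892.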

Other observations

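The transcription factors of the testis side and of the shared gonadal lineage were read as a list of 19 measured genes, for contrast with the 7 ovarian ones. In XX-WT against XY-WT 5 were higher and 8 lower, with a median log2 fold change of -0.41. In the authors' deposited table Emx2, a homeobox gene of the early gonad, was higher in XX-WT by 1.71 (limma adjusted p 5.81e-07). In XY-KO against XY-WT 1 of the 19 rose (0 with the trend with GC content and length removed) and 2 fell. Of all genes 2.27% were called there in either direction. Sox9, the floxed gene itself, is on this list and is 1 of the 2 that fell, so that call was set by the design. None of the 7 ovarian genes was called, and whether these shares differ was not tested. The forkhead gene Foxc1 was lower in XX-WT by 1.80 (limma adjusted p 0.000308) and stood at -0.95 in XY-KO (limma adjusted p 0.0757, not past the test, both in the authors' deposited table).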
